A study of Oryctolagus cuniculus with 6 samples.

Results

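The 9 integrin subunit genes examined here are ITGA1, ITGA2, ITGA5, ITGA7, ITGA8, ITGAV, ITGB1, ITGB3 and ITGB5, the alpha and beta chains by which vascular smooth muscle is known to hold on to its matrix. Probes were taken where the array's annotation gave one of these symbols or described that subunit, which found 30 of 43603 probes. Those probes covered 8 of the 9 genes, and all 30 passed the filter on dim probes. ITGA7 was not matched to any probe and was not analysed here. The 5 probes of ITGB3 were found under its former name, glycoprotein IIIa (GPIIIA). Ligated rabbits were female New Zealand White animals whose common carotid arteries were tied on both sides to raise vascular flow, and sham rabbits of the same sex and strain had those arteries exposed and not tied. On day 5 the whole basilar artery of each animal was perfused with elastase and collagenase, and smooth muscle cells were freed by trituration for total RNA. Each group had 3 arrays, labelled with Cy3 in 1 colour. The labels give no ages, and do not state whether an array held RNA of 1 rabbit or of several, so p-values measure the spread between arrays.

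Integrins are paired receptors of 1 alpha and 1 beta chain that span the cell membrane, bind matrix proteins outside the cell and couple to the actin cytoskeleton inside it. The alpha chain largely sets which ligand is held. ITGA1 and ITGA2 pair with ITGB1 to bind collagen, ITGA5 pairs with ITGB1 as the main fibronectin receptor, and ITGA8 pairs with ITGB1 to bind nephronectin, fibronectin and other proteins that carry the same short binding motif. ITGAV pairs with ITGB1, ITGB3 or ITGB5 and binds vitronectin, osteopontin and fibronectin. In arterial muscle, ITGA1 and ITGA8 are known for high levels in contractile cells.

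The results turn on the probes of 3 alpha chains, whose sequences are shown because each gene rests on few of them. ITGA2 had 4 probes on chromosome 11 of oryCun2, all on the plus strand. They lie at chr11:69115309-69116694, chr11:69133386-69133445, chr11:69133446-69134039 and chr11:69134040-69134098, and the last 3 adjoin each other. The span of the probe A_04_P032837, and that of A_04_P098618, is longer than the 60 bases of the probe itself. From the transcript's start to its end they read as follows.
ITGA2 probe A_04_P032837: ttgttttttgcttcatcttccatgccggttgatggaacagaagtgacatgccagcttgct
ITGA2 probe A_04_P098619: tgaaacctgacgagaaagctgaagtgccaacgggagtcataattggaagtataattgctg
ITGA2 probe A_04_P098618: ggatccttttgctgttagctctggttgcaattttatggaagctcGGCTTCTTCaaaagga
ITGA2 probe A_04_P098617: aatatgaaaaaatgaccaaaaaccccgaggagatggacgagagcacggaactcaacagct

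ITGA8 had 2 probes on the plus strand of chromosome 16, at chr16:45824799-45824858 and chr16:45824839-45827786. They share 20 bases, the last of the first probe and the first of the second, so they are not independent readings of the transcript.
ITGA8 probe A_04_P093893: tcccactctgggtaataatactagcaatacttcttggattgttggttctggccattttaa
ITGA8 probe A_04_P093892: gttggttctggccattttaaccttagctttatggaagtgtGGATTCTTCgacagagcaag

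ITGA5 had 2 probes on the minus strand of chromosome 4, at chr4:38151132-38151191 and chr4:38146685-38147155, with no shared bases.
ITGA5 probe A_04_P088227: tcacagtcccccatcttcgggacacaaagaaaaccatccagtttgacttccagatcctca
ITGA5 probe A_04_P016676: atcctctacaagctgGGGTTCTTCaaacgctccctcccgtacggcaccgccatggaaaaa

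The capitals mark the motif GGNTTCTTC, which was searched on both strands without regard to overlaps with other motifs. As background, integrin alpha chains share a short conserved motif just inside the membrane, and these letters are among those that can encode its start. The motif stood in 3 of the 30 probes, 1 each of ITGA2, ITGA5 and ITGA8, always on the transcript's strand, while 0.560% of all 43603 probes held it on either strand. A match describes the letters of the probe only.

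Between 58.7% and 63.7% of probes were well above background on an array, and none was saturated. Levels are given as log2 signal relative to the 75th percentile of the same array, so that 0 is a probe as bright as that percentile, and levels are not compared between probes, whose brightness also depends on their sequence. All ligated arrays lay on 1 slide and all sham arrays on the other, so that slide and surgery cannot be told apart. Sham arrays 2 and 3 resembled each other most. The difference shared by 2 probes of the same gene, over 3518 genes, had an SD of 0.15 (log2) between them, and of at least 0.50 between the arrays of every other pair. The SD of the whole difference over these genes was 1.28 between sham array 1 and either other sham array. It was 1.05, 0.92 and 1.19 between sham array 1 and ligated arrays 1, 2 and 3, so by that measure sham array 1 lay closer to ligated arrays. By the shared part, sham array 1 lay nearer the sham arrays, at 0.64 and 0.63, than the ligated arrays, at 0.93, 0.88 and 0.94. Sham array 3 was the only array of its scan day. Values with sham arrays 2 and 3 averaged are therefore given for each integrin gene that passed and wherever averaging ended another call whose p is given, and a fit with scan day as a block leaves the same contrast as leaving sham array 3 out.

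The smooth muscle label was checked against 10 marker genes, of which 9 had a probe and all 9 were well above background in both groups. Their summed linear signal, in multiples of the array's 75th percentile, lay between 428 and 972 in ligated arrays and between 1228 and 2028 in sham arrays. On each gene's brightest probe, 2 of the 9 fell, where 2.69% of all genes tested fell, and 7 did not pass the threshold, with a median change of -1.16 (log2) against 0.01 over all 7540 genes tested. At an unadjusted p under 0.05, 8 of the 9 were lower, beside 12.4% of all genes. SMTN, the cytoskeletal protein smoothelin, fell by 1.77 on the log2 scale (limma adjusted p = 0.00794) and DES, the intermediate filament desmin, fell by 1.11 (limma adjusted p = 0.0399, and 0.136 with sham arrays 2 and 3 averaged). Markers of fibroblasts and meninges moved the other way. Of 10 listed, 6 were tested and 4 rose, where 6.22% of all genes tested rose, and the summed level of the list was between 143 and 187 in ligated arrays and between 86.5 and 102 in sham arrays. The 4 were LUM, a collagen-binding proteoglycan, at +2.38, ALDH1A2, a retinoic acid enzyme of meninges, at +2.54, SLC6A13, a transporter of meningeal cells, at +2.04, and MFAP5, a microfibril protein, at +3.28. With sham arrays 2 and 3 averaged, the limma adjusted p of SLC6A13 was 0.129 and that of MFAP5 was 0.148. None of the 6 macrophage, 7 lymphocyte, 4 neutrophil, 5 endothelial or 3 erythroid markers tested passed in limma, with 1 neutrophil marker at an unadjusted p under 0.05. Of 10 neuron and glia markers listed, only S100B was tested, at -0.90 on its brightest probe (limma adjusted p = 0.0546), without overlap. Of its 5 probes, 3 passed as lower, where 2.65% of all tested probes fell. The macrophage list summed to 8.56 to 32.7 in ligated arrays and 8.91 to 19.6 in sham arrays. The lymphocyte list summed to between 0.665 and 3.46 in ligated arrays and between 0.723 and 5.91 in sham arrays. Its gene CD2, well above background in 2 arrays of each group, read -4.75, 0.28 and 0.28 in sham arrays 1, 2 and 3. In the same arrays its gene MS4A1 read -1.67, -2.54 and -4.02. With such spread within a group, not passing does not show that the arrays held equal shares of blood cells. The erythroid list summed to between 28.5 and 668 in ligated arrays and between 189 and 389 in sham arrays. Its beta-globin gene HBB2 read 4.32, 4.51 and 8.74 in ligated arrays, against 7.08, 8.10 and 8.05 in sham arrays, so that ligated array 3 stood highest and ligated arrays 1 and 2 lowest. The part of these lists in the integrin results was not tested, and in RNA of a whole preparation a change in the share of a cell type cannot be told apart from a change in RNA per cell.

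Of the 30 integrin probes, 6 passed the threshold of a Benjamini-Hochberg adjusted p under 0.05 in limma, adjusted over all 27410 probes tested, of which 8.35% passed. All 4 probes that rose were those of ITGA2, where 5.71% of all tested probes rose, and both probes that fell were those of ITGA8, where 2.65% of all tested probes fell. Of the 30 probes, 28 were well above background on all 6 arrays, and 2 of these rose and 2 fell. The other 2, both of ITGA2, were dim in sham arrays and met the filter through the ligated arrays, so that their passing adds no support. The ligated and sham arrays did not overlap for 16 of the 30 probes, and for 34.7% of all tested probes. Several of the 16 share bases with another probe of their gene, so they are not separate readings. With each gene represented by its tested probe of the highest mean signal, ITGA2 rose, ITGA8 fell and 6 of the 8 genes did not pass, against 8.91% passing among all 7540 genes tested. Groups did not overlap for 6 of the 8 genes, beside 35.5% of all genes. The median change was +0.21 over the 8 genes and 0.01 over all genes tested.

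**Figure D1:**
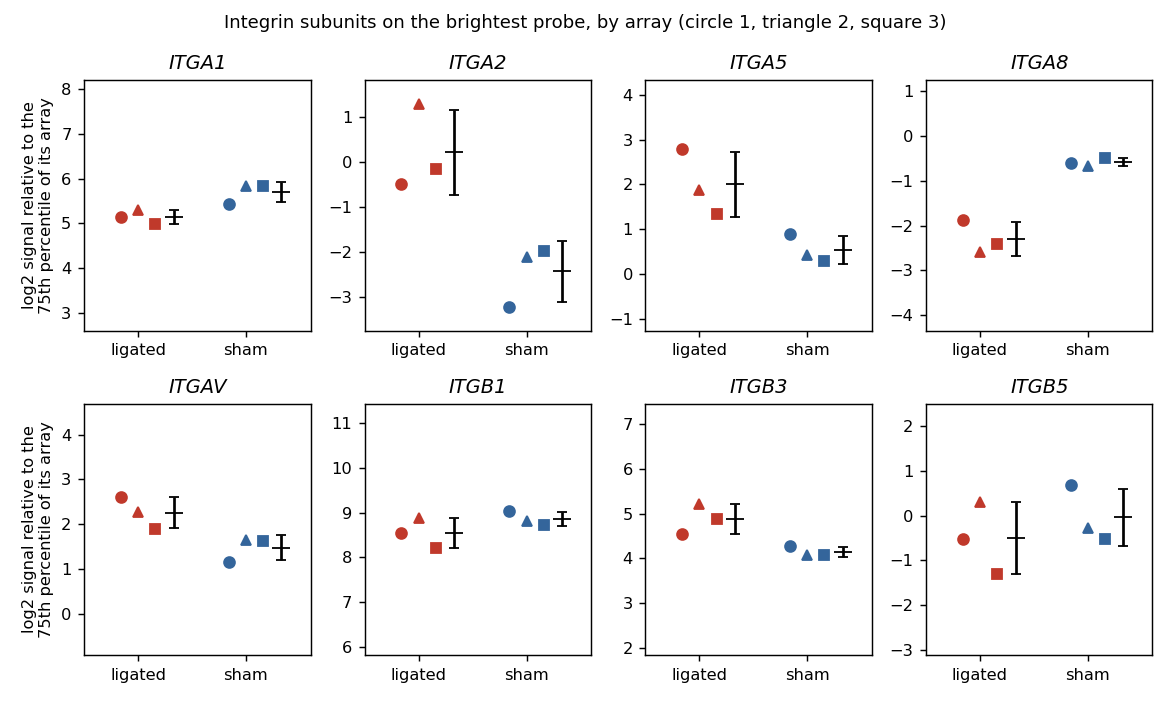
Normalised log2 signal of the 8 integrin subunits on the brightest probe, by array, for ligated arrays on the left of each panel and sham arrays on the right. Circles, triangles and squares are replicates 1, 2 and 3, and the bar beside each group is its mean with the SD of 3 arrays. Every panel spans the same range of log2 units, and the groups overlap for ITGB1 and ITGB5 only.

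ITGA2, the alpha chain of the collagen receptor also known from platelets and migrating cells, rose. On its brightest probe the level was -0.49, 1.31 and -0.16 in ligated arrays 1, 2 and 3, against -3.22, -2.11 and -1.98 in sham arrays 1, 2 and 3. The lowest ligated array stood above the highest sham array, and ligated array 2 was the highest of all. The group means were 0.22 ± 0.96 in ligated arrays and -2.44 ± 0.68 in sham arrays (SD, n = 3 each). The difference was 2.66 ± 0.55 (standard error of the fit), a 6.30-fold rise with a limma adjusted p of 0.0362.

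The other ITGA2 probes also read higher in ligated arrays. A_04_P098619, the probe that adjoins the brightest one upstream, read -1.07, 0.58 and -0.71 in ligated arrays, against -3.45, -2.62 and -2.80 in sham arrays, a change of +2.56 with a limma adjusted p of 0.0249, and 0.0775 with sham arrays 2 and 3 averaged. A_04_P098617, the most downstream of the 4, read -2.56, -2.60 and -3.18 in ligated arrays, against -4.42, -4.31 and -4.06 in sham arrays. It cleared background on each of the 3 ligated arrays but on 1 of 3 sham arrays, so that its fitted change of +1.48 is set against sham readings mostly at background. The most upstream probe, A_04_P032837, read -1.98, -0.96 and -2.59 in ligated arrays, and in no sham array was it well above background. Its fold is therefore a bound. Set against the lowest signal that counted as well above background on each sham array, it was at least 5.28-fold higher in ligated arrays. The limma adjusted p of 0.00383 was computed against sham readings below background, on a probe that was tested because of its ligated arrays, and is given without weight. Over the 6 arrays the 4 probes correlated with each other at a Pearson r between 0.907 and 0.994, as a description.

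The ITGA2 call on the brightest probe ended whichever of the 6 arrays was left out. With sham arrays 2 and 3 averaged, the change on the brightest probe was +2.85 with a limma adjusted p of 0.0951, and leaving out any 1 of the 6 arrays gave changes between 2.11 and 3.01 with limma adjusted p between 0.0553 and 0.0989. Testing every probe with no filter on dim ones left the change as it was with a limma adjusted p of 0.0542. Background correction by normexp, with an offset of 50, gave +1.19 on the brightest probe (limma adjusted p = 0.789), and fitted without high-background spots +1.69 (limma adjusted p = 0.0381). Under the first of these settings 0 of all 27410 probes passed and 615 had an unadjusted p under 0.05.

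ITGA1, the alpha chain of the other collagen receptor of smooth muscle, did not pass the threshold on any of its 3 probes. Its probes lie on the same chromosome and strand as those of ITGA2, with 122.598 kb from the last base of the ITGA1 probes to the first base of the ITGA2 probes. The brightest ITGA1 probe, at chr11:68992652-68992711, read 5.14, 5.31 and 4.98 in ligated arrays, against 5.43, 5.83 and 5.83 in sham arrays. Every ligated array lay below every sham array, by a small margin. The difference was -0.56 ± 0.21 with a limma adjusted p of 0.143, and the other 2 probes gave -0.46 and -0.51, also without overlap of the groups. These 2 probes share 16 bases.

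The neighbouring collagen receptor genes were set against each other within each array. The ITGA2 level minus the ITGA1 level was -5.63, -4.00 and -5.14 in ligated arrays, against -8.65, -7.95 and -7.80 in sham arrays. Since the probes differ in brightness, only the shift between groups can be read. It was 3.21 (log2), 2.78 under quantile normalisation and 1.83 under normexp. Median centring cannot change it, because a value subtracted from a whole array cancels within that array. This and the other pairs of genes set against each other below were chosen after their values were seen and are descriptions, with no test.

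ITGA8, the alpha chain known for contractile smooth muscle, fell. On its brightest probe the level was -1.88, -2.60 and -2.41 in ligated arrays, against -0.60, -0.67 and -0.49 in sham arrays. The groups stood far apart, and the sham arrays were close together. The means were -2.30 ± 0.38 in ligated arrays and -0.59 ± 0.09 in sham arrays (SD, n = 3 each). The level fell by 1.71 ± 0.24 on the log2 scale, a 3.27-fold drop with a limma adjusted p of 0.0111. The other probe read -2.27, -3.45 and -3.25 in ligated arrays, against -1.10, -1.17 and -1.04 in sham arrays, and fell by 1.89 ± 0.33 (limma adjusted p = 0.0216, and 0.0840 with sham arrays 2 and 3 averaged). All 6 arrays measured both probes well above background.

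The ITGA8 fall passed in 14 of 19 alternative settings, and the call ended in 5. The adjusted p was 0.0541 with sham arrays 2 and 3 averaged (change -1.71), 0.0528 without sham array 2 and 0.0619 without sham array 3, all from limma, while leaving out sham array 1 or any 1 ligated array left it past the threshold. Under normexp the change was -0.21 (limma adjusted p = 0.804), and under normexp fitted without high-background spots it was -0.89 (limma adjusted p = 0.0210). In linear signal the ITGA8 probe had 49.4, 41.4 and 29.5 units in ligated arrays, against 146, 130 and 160 units in sham arrays, before scaling between arrays.

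ITGA5, the alpha chain of the fibronectin receptor, had higher values in ligated arrays that did not pass. The brightest probe read 2.78, 1.88 and 1.34 in ligated arrays, against 0.88, 0.43 and 0.29 in sham arrays. The groups did not overlap, and ligated array 3 was the lowest of its group. The difference was +1.47 ± 0.39 with a limma adjusted p of 0.0690. The other probe read 1.98, 1.33 and 1.19 in ligated arrays, against 0.82, 0.70 and 0.63 in sham arrays, and differed by +0.78 ± 0.25 (limma adjusted p = 0.108). The brightest probe passed in 5 of 19 alternative settings, among them the fit without ligated array 3 (+1.80, limma adjusted p = 0.0403).

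The change of ITGA5 and that of ITGA8, both partners of ITGB1, were also set against each other. The ITGA5 level minus the ITGA8 level was 4.66, 4.48 and 3.76 in ligated arrays, against 1.49, 1.10 and 0.78 in sham arrays. The shift was 3.18 (log2), 3.37 under quantile normalisation and 1.08 under normexp.

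ITGB1, the beta chain shared by these alpha chains, showed no difference past the threshold on any of its 7 probes, and on each of them the groups overlapped. The brightest probe read 8.53, 8.87 and 8.21 in ligated arrays, against 9.04, 8.81 and 8.73 in sham arrays, a difference of -0.32 ± 0.23 (limma adjusted p = 0.409). Under quantile normalisation that difference was -0.01. Of the other 6 probes, 5 were shifted by 1 base from each other and share 56 to 59 bases, so they amount to a single reading. Their median level was 2.14, 2.51 and 1.52 in ligated arrays, against 2.88, 1.79 and 1.92 in sham arrays, and sham array 1 stood highest of the 6. Over all 7 probes the differences ran from -0.32 to -0.12, with limma adjusted p from 0.409 to 0.862. The direction on the 5 tiled probes turned with array weights, without ligated array 3 and without sham array 1.

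ITGAV, the alpha chain of the vitronectin receptors, had positive differences on all 6 probes and passed on none. The brightest probe, at chr7:127026880-127026940, read 2.60, 2.28 and 1.90 in ligated arrays, against 1.16, 1.64 and 1.62 in sham arrays. It differed by +0.78 ± 0.26 (limma adjusted p = 0.112), with no overlap. The other 5 probes lie further along the transcript and overlap their neighbours by 25 to 30 bases. Their median level was 0.80, 0.61 and -0.64 in ligated arrays, against -0.09, -0.93 and -1.01 in sham arrays. Ligated array 3 lay among the sham arrays on each of these 5 probes, and their differences ran from +0.77 to +1.08.

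ITGB3, the beta chain that pairs with ITGAV in vessels and with ITGA2B in platelets, differed by +0.74 ± 0.23 on its brightest probe and did not pass (limma adjusted p = 0.0944). That probe read 4.55, 5.22 and 4.89 in ligated arrays, against 4.27, 4.08 and 4.09 in sham arrays, so that every ligated array was above every sham array. Over its 5 probes the differences ran from +0.57 to +0.74, and the groups did not overlap on 4 of them. These 4 probes share 13 to 40 bases with their neighbours, so they are not independent readings of the transcript. The exception, A_04_P064307, is the probe furthest upstream and reads -1.50, -1.21 and -1.96 in ligated arrays, against -1.0, -2.94 and -2.84 in sham arrays, with sham array 1 the highest of all 6. Without sham array 1 that probe differed by +1.34 (limma adjusted p = 0.0446). The brightest probe passed under quantile normalisation (+0.97, limma adjusted p = 0.0416) and with array weights (+0.88, limma adjusted p = 0.0234). It also passed in the authors' deposited value table refitted with limma (+0.97, adjusted p = 0.0422). That table gave nearly the same values as quantile normalisation, so it is not a separate pass. Platelets also carry ITGA2 and ITGB3. Of 9 platelet markers listed, 4 had a probe, GP1BA and GP5 were not well above background on any array, and the summed level of the list was at most 0.10 in ligated arrays and 0.0960 in sham arrays, in multiples of the array's 75th percentile.

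ITGB5, a further partner of ITGAV, had 1 probe, and its groups overlapped. It read -0.52, 0.30 and -1.31 in ligated arrays, against 0.68, -0.27 and -0.53 in sham arrays, a difference of -0.47 ± 0.49 (limma adjusted p = 0.564). It was -0.87 without ligated array 2 and -0.069 without ligated array 3. Set within each array, the ITGB3 level minus the ITGB5 level was 5.07, 4.91 and 6.19 in ligated arrays, against 3.59, 4.35 and 4.62 in sham arrays. The shift was 1.21 (log2), 1.49 under quantile normalisation and 0.916 under normexp.

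**Figure D2:**
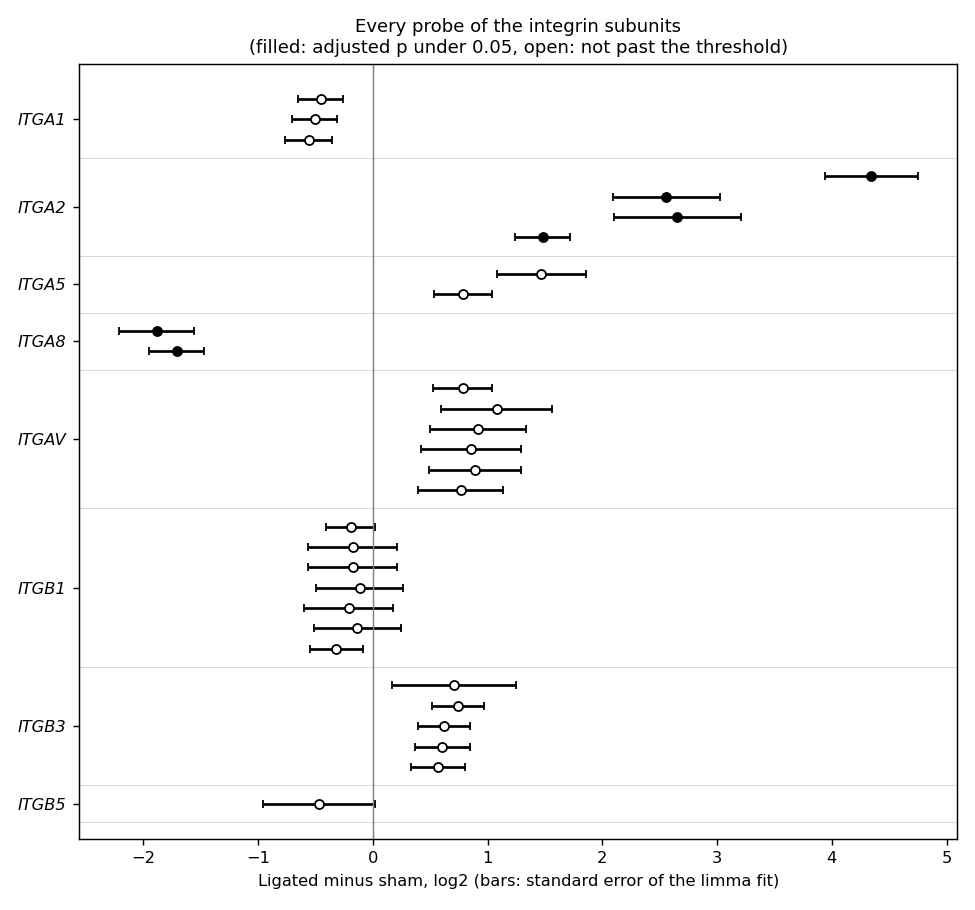
Difference between ligated and sham arrays (log2, horizontal axis) for each of the 30 integrin probes, grouped by gene and ordered along the transcript, with the standard error of the limma fit. Filled points passed an adjusted p under 0.05. The 4 filled points on the right are the ITGA2 probes, of which the uppermost has sham arrays below background and is a fitted value rather than a measured fold, and the 2 on the left are the ITGA8 probes.

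Probes of the same gene mostly moved together across arrays. The median Pearson r between probe pairs over the 6 arrays was 0.986 for ITGA1, 0.95 for ITGA2, 0.990 for ITGA5, 0.992 for ITGA8, 0.967 for ITGAV, 0.934 for ITGB3 and 0.820 for ITGB1. These are descriptions over 6 arrays in which slide and surgery change together, so the step between groups enters each r. By the same measure, the genes whose level followed ITGA2 most closely among 7532 genes were EIF4E, a translation initiation factor, at r = 0.997, NAGLU, a lysosomal enzyme, at r = 0.995, and PLEK, a protein kinase C substrate of blood cells, at r = 0.995. Their changes were +0.49, +0.84 and +1.40. Those closest to ITGA8 were CCDC110 at r = 0.998, ZDHHC17, a palmitoyltransferase, at r = 0.995 and P2RY14, a receptor for nucleotide sugars, at r = 0.995, with changes of -1.41, -0.38 and -1.32.

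**Figure D3:**
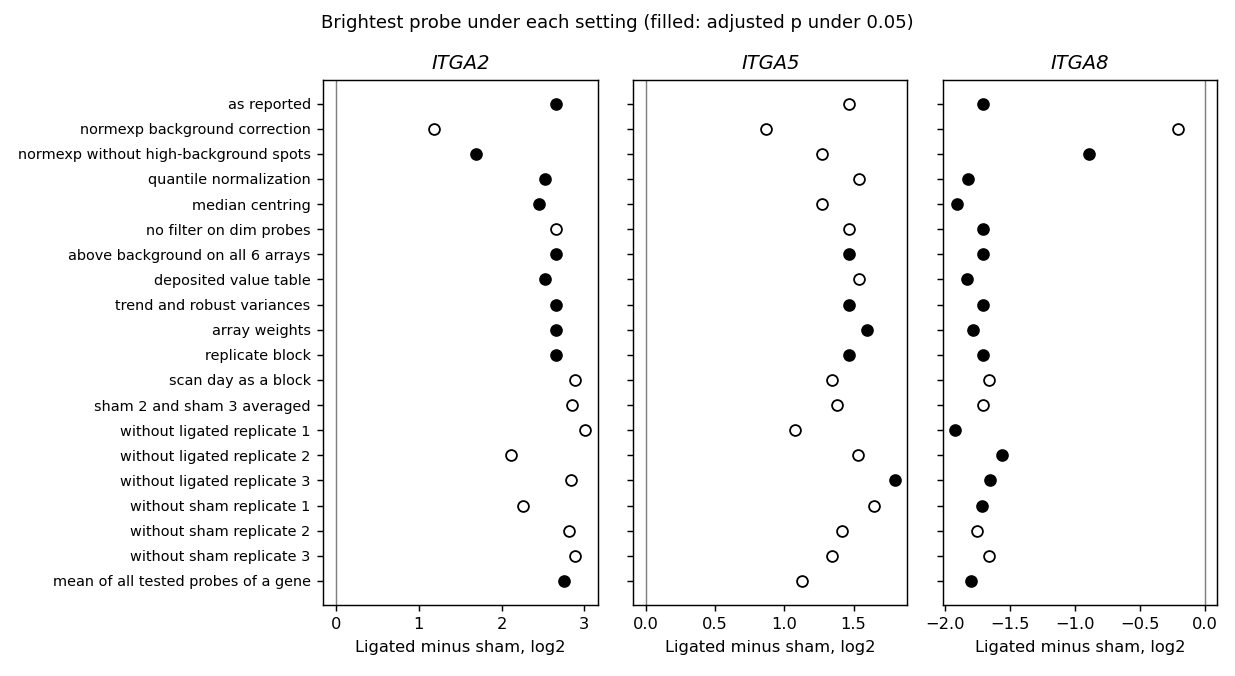
Difference between ligated and sham arrays (log2, horizontal axes) on the brightest probe of ITGA2, ITGA5 and ITGA8, as reported and under each of 19 alternative settings. Filled points passed an adjusted p under 0.05 in limma. ITGA2 passed in 9 of the 19, ITGA8 in 14 and ITGA5 in 5, and no point lies on the other side of 0.

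The remaining integrin chains of the family were read for comparison. Of 17 listed, 15 had a probe, 12 were tested and 0 passed in limma in either direction, beside 8.91% of all genes, with a median change of +0.10. At an unadjusted p under 0.05, 2 of the 12 were higher and 0 lower, where 15.4% of all genes were higher and 12.4% lower. The smallest p belonged to ITGAM, a myeloid alpha chain, at +1.05 ± 0.25 (limma adjusted p = 0.0546), and ITGA11, a collagen-binding alpha chain of fibroblasts, at +2.0 ± 0.50 (limma adjusted p = 0.0599). ITGA11 read as a level 0.38 in ligated arrays and -1.62 in sham arrays on average, without overlap, and passed in 6 of 18 alternative settings. ITGAL, ITGAX and ITGB6 were not well above background on any array.

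Genes for many of the matrix proteins that these receptors bind rose. Of 31 integrin ligands listed, 26 had a probe, 25 were tested, 15 rose and 0 fell in limma, with a median change of +1.39, while 6.22% of all genes tested rose. At an unadjusted p under 0.05, 19 of the 25 were higher and 0 lower, beside 15.4% and 12.4% of all genes. Among the 23 ligands well above background on all 6 arrays, 14 rose and the median change was +1.31. COL1A1, a chain of fibrillar collagen, rose by 3.02 ± 0.28 (8.12-fold), with a limma adjusted p of 0.00374. COL6A1, of beaded-filament collagen, rose by 2.08 ± 0.18 (limma adjusted p = 0.00353), and COL5A1, of the collagen that starts fibrils, rose by 1.89 ± 0.17 (limma adjusted p = 0.00383). FN1, the fibronectin held by ITGA5 and ITGAV, rose by 2.41 ± 0.24, 5.33-fold, with a limma adjusted p of 0.00441, and all 11 of its probes passed. These 4 genes remained past the threshold in 17 of 18 alternative settings, the exception being normexp.

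Single ligands, picked for a known partner after their values were seen, differed among themselves. VTN, the vitronectin bound by ITGAV, was well above background in ligated arrays and in no sham array, so its fold was not measured. It read -1.26, 0.57 and 1.92 in ligated arrays. Their mean stood 25.2-fold above the lowest signals that counted as well above background on the sham arrays. Its limma adjusted p of 0.00921 rests on sham readings below background and is given without weight. Under normexp its fitted change was +1.73, and +2.60 when fitted without high-background spots. SPP1, the osteopontin bound by ITGAV, differed by +1.54 ± 0.43 and did not pass (limma adjusted p = 0.0789). NPNT, the nephronectin bound by ITGA8, differed by +0.43 ± 0.51, with overlapping groups (limma adjusted p = 0.615). The number of ligands that rose was 8 with sham arrays 2 and 3 averaged, 12, 8 and 16 without ligated array 1, 2 and 3, and 15, 8 and 7 without sham array 1, 2 and 3. The fibroblast and meningeal markers given above, whose cells also make matrix, were higher in the same ligated arrays, and their part was not tested.

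Genes of the focal adhesion, the complex that ties integrin tails to actin, mostly did not pass. Of 38 listed, 24 had a probe, 23 were tested, and 0 rose and 1 fell in limma, where 2.69% of all genes fell. The median change was -0.13, and 2 of the 23 were higher and 5 lower at an unadjusted p under 0.05, beside 15.4% and 12.4% of all genes. CSRP1, a LIM protein of smooth muscle that binds actinin, fell by 1.74 ± 0.18 on the log2 scale (3.34-fold, limma adjusted p = 0.00509), and passed in 17 of 18 alternative settings, all but normexp. VCL, vinculin, differed by -0.24 ± 0.29, and ILK, a kinase-like scaffold on ITGB1 tails, by -0.85 ± 0.26, neither past the threshold (limma adjusted p of 0.626 and 0.0978). Both were named after their values were seen.

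**Figure D4:**
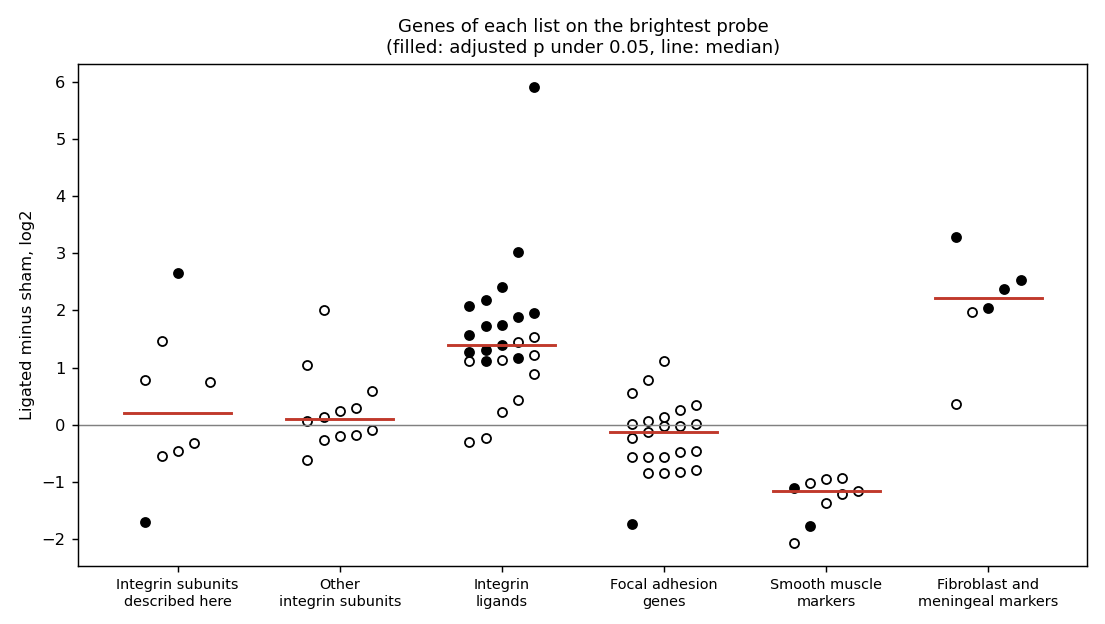
Difference between ligated and sham arrays (log2, vertical axis) on the brightest probe of each gene, for the 8 integrin subunits, 12 other integrin subunits, 25 ligands, 23 focal adhesion genes, 9 smooth muscle markers and 6 fibroblast and meningeal markers. Filled points passed an adjusted p under 0.05 in limma and lines are medians, at +0.21, +0.10, +1.39, -0.13, -1.16 and +2.21. The uppermost ligand is VTN, which was below background in sham arrays and is drawn at its fitted value.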

How the data were processed

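Total RNA of basilar artery smooth muscle preparations was read on 1-colour Agilent arrays, 3 ligated and 3 sham. Feature Extraction 10.7 of Agilent is named in the submitters' processing notes. Its processed signal, per the file headers, is an intensity from which background and a spatial trend were removed array by array, with no scaling between arrays. The deposited mean and background signals are intensity values without such correction, and spot flags are deposited as marks of 0 or 1. The deposited value table holds log2 values, set by comparison with the processed signal on a log2 scale (r of at least 0.999 on every array). Array medians lay between 5.045 and 5.046, and how the arrays were brought to 1 scale is not given in the labels or headers. Refitted with limma, the deposited values gave changes of the integrin genes close to those under quantile normalisation.

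Here, log2 of the processed signal was averaged over spots of a probe, leaving out flagged outliers and control spots, and the 75th percentile of the array was subtracted. Probes well above background on at least 3 arrays were tested with limma 3.58.1 in R 4.3.3 (two-sided, 4 residual degrees of freedom, Benjamini-Hochberg over 27410 probes, threshold 0.05). The fit was tested on simulated data, where many of the known changes did not pass the threshold. Not passing therefore does not show that a level was unchanged. A gene stands on its tested probe of highest mean signal. Positions follow the files' own annotation on oryCun2, and gene names came from the files and a RefSeq table, with 22466 of 43603 probes given 1 symbol. The genes, lists and tests were chosen with earlier results of these data known. Named genes were all members with every probe, the 4 or fewer genes of a list that passed with the lowest p (failing that, up to 2, as values), and the 3 genes with the highest correlation with the largest rise and fall. Same-numbered ligated and sham arrays deviated together at correlations of 0.43, -0.57 and 0.58. These 3 values cannot settle whether the numbers pair the arrays, and the main fit used no pairing. Alternatives were normexp with an offset of 50, other normalisations, filters, variance models, array weights, blocks, the deposited table, probe means and leave-outs.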

Additional observations from a re-analysis of the deposited data

How the results depend on the processing

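Across 19 settings the number of integrin genes that passed ran from 0 to 5 around the 2 reported, and that of integrin probes from 0 to 18 around 6 over 18 settings. Normexp gave 0 genes, 0 integrin probes and 0 of all probes, where 2290 passed as reported. Quantile normalisation and the deposited table gave 2121 and 2116 probes and the same integrin genes, ITGA2, ITGA8 and ITGB3. They are close to a single setting in these counts. No filter on dim probes gave 1 gene and 1524 probes of the whole array, and array weights gave 5 genes, 18 integrin probes and 6098 probes in all. Scan day as a block gave 0 genes, 1 integrin probe and 552 probes, and averaging sham arrays 2 and 3 gave 0 genes, 1 integrin probe and 595 probes. The single integrin probe left in both was ITGA2 A_04_P032837, which was below background in every sham array and is no support for the call. With the replicate number as a block, 1295 probes passed, and among the integrin genes ITGA5 joined ITGA2 and ITGA8 (limma adjusted p = 0.0481). Leaving out 1 array at a time gave 552 to 2269 probes, 1 to 6 integrin probes and 0 to 2 integrin genes, with no gene left without sham array 2 and without sham array 3. The ligands that rose ran from 0 (normexp) to 21 (array weights), with 10 under the replicate block and 7 under the scan day block.

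Among the values recomputed, directions turned only where no test had passed. ITGB1 probe A_04_P004426 was at 0.25 under quantile normalisation and 0.26 in the deposited table. With array weights ITGB5 was at 0.066 and the ITGB1 probes A_04_P016685, A_04_P016684, A_04_P016683, A_04_P016682 and A_04_P016681 at 0.26, 0.27, 0.31, 0.23 and 0.30. In the same order, leaving out 1 array at a time gave ranges of -0.41 to 0.17, -0.40 to 0.17, -0.33 to 0.23, -0.42 to 0.15 and -0.36 to 0.20, above 0 without ligated array 3 and without sham array 1. The causes were not tested. Normexp, median centring and no filter moved the median change of all probes to 0.21, -0.19 and 0.17.

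Slide and surgery coincide, 3 arrays a group limit precision, and dim probes such as those of ITGA2 and ITGA8 depend on the background correction.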
